A study of Zea mays with 6 samples.

Results

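In maize ovaries with incompletely fused carpels (IFC) and with completely fused carpels (CFC), the rarer miRNA families comprised 15 of the 161 known miRNAs, in 9 of 33 families. They were chosen by name alone, as every listed miRNA outside the widely conserved families such as miR156, miR166, miR172 and miR396. These are the phasiRNA triggers miR2118 and miR2275, together with miR1432, miR1878, miR5568, miR6253, miR6221, miR5056 and miR6199. The ovaries came from inbred line Yu-A474, which bears both phenotypes on one ear, and were unpollinated, collected at silking from plants grown without stress. There were 2 IFC and 2 CFC small RNA libraries, the replicates coming from different ear rows, and 1 IFC and 1 CFC degradome library, each of which mixed both biological samples of its phenotype. CFC ovaries are wild-type in the labels, and both phenotypes share 1 genetic background. In an IFC ovary the carpel wall leaves a hole near the silk through which the nucellus can extrude. The labelled tissue could not be checked against marker genes, since no mRNA level was measured. In ovaries sampled whole, fewer cells of a type and less RNA per cell cannot be told apart.

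Plant miRNAs of 22 nt can do more than cut a transcript: after cleavage by a miR2118 or miR2275 complex the RNA is made double-stranded and diced in register, giving phased secondary siRNAs (phasiRNAs). In grasses miR2118 starts the 21-nt phasiRNAs and miR2275 the 24-nt phasiRNAs, and both classes are best known from anthers, the male organs that are absent from the ovary. miR1432 is known in rice, where it targets an acyl-CoA thioesterase gene and affects grain filling. The other 6 families were named in sorghum (sbi), Brachypodium (bdi), barley (hvu) and rice (osa), and no function is stated for them here.

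The mature sequences of the 15 miRNAs, as deposited in DNA letters, are printed because the families are separated by their seeds, bases 2 to 8 from the 5′ end, which are in capitals.
zma-miR2118b: tTCCCGATgcctcccattccta
zma-miR2118d: tTCCTGATgcctcccatgccta
zma-miR2118a: tTCCTGATgcctctcattccta
zma-miR2118g: tTCCTGATgcctcctattccta
zma-miR2118c: tTCCTAATgcctcccattccta
zma-miR2275b-3p: tTCAGTTTcctctaatatctca
zma-miR2275b-5p: aGGATTAGaggcaactgaacc
zma-miR1432-5p: tCAGGAGAgatgacaccgacg
bdi-miR1878-3p: aTTTGTAGtgttcagattaagttt
sbi-miR5568b-5p: tTCTAGGTacatagcttttgc
sbi-miR5568d-3p: aAAAGTTGtctatctagaaaagcc
osa-miR6253: aGGAAAATgggcagttgggttaagc
sbi-miR6221-5p: tCTGACTTctggcccctgctcagc
bdi-miR5056: gGAGGAAGaaccggtaataagcac
hvu-miR6199: cACAGAATtctcacagtgatgggcc
The seed was shared by miR2118a, miR2118d and miR2118g only. The other 12 sequences had a seed each, and none of the 13 seeds occurred among the other 146 known miRNAs. Of the 15 sequences, 9 began with T, against 71 of the other 146 (48.6%). A total of 7 were listed as identical to a miRBase entry, all of them from maize miR2118 and miR2275, and the other 8 differed from it at an end or at a base.

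The 5 miR2118 sequences are shown again with their differences in capitals, since these are the only means by which their reads were told apart. The base at each position held by most of the 5 gives the run ttcctgatgcctcccattccta, which no member carries.
zma-miR2118b: ttccCgatgcctcccattccta
zma-miR2118d: ttcctgatgcctcccatGccta
zma-miR2118a: ttcctgatgcctcTcattccta
zma-miR2118g: ttcctgatgcctccTattccta
zma-miR2118c: ttcctAatgcctcccattccta
Each member departed from that run at a single base, counted from 1 at the 5′ end: T5C in miR2118b, T18G in miR2118d, C14T in miR2118a, C15T in miR2118g and G6A in miR2118c. Any pair of members therefore differed at 2 of 22 bases. No single base change turns one member into another. The changes of miR2118b and miR2118c lie inside the seed, and those of the other members lie outside it.

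The rare families also differed from the rest of the known miRNAs in length. There were 3 sequences of 21 nt, 6 of 22 nt (40.0%), 4 of 24 nt (26.7%) and 2 of 25 nt (13.3%). Among the other 146, 90 had 21 nt (61.6%), 27 had 22 nt (18.5%) and 7 had 24 nt (4.79%), with none of 25 nt. The 22-nt group was made up of the 5 miR2118 sequences and miR2275b-3p, the length of a phasiRNA trigger. The 24- and 25-nt group held miR1878, the 3′ arm of miR5568 and the families miR5056, miR6199, miR6221 and miR6253. By the end changes written in their names, 5 of these 6 were longer than their miRBase entry. miR5056, miR6221 and miR5568d-3p had 24 nt against 21 nt in miRBase, miR6253 had 25 nt against 22 nt and miR6199 had 25 nt against 23 nt. Only miR1878 had the 24 nt of its entry. These are descriptions of the listed sequences, with no test.

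**Figure D1:**
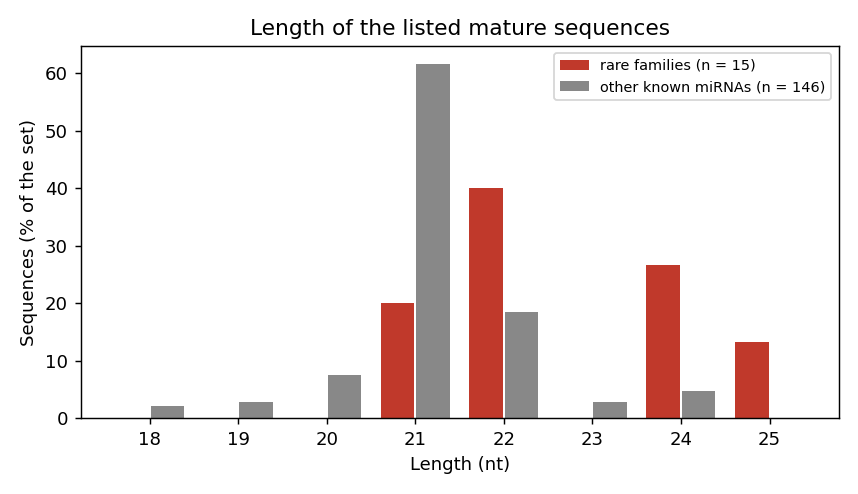
Length of the mature sequences in nt (x axis) against the percent of each set (y axis), for the 15 rare-family miRNAs (red) and the other 146 known miRNAs (grey). The rare families peak at 22 nt (40.0%) and the other known miRNAs at 21 nt (61.6%).

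The miR2118 loci lie in 2 groups. On chromosome 2 the precursor of miR2118b (chr2:49919300-49919417, plus strand) ends 74 bases before that of miR2118d (chr2:49919492-49919639, plus strand), and the precursor of miR2118g (chr2:49985342-49985486) follows 65702 bases further on. On chromosome 10 the precursors of miR2118a (chr10:117749885-117750002, minus strand) and miR2118c (chr10:117773257-117773389, minus strand) are 23254 bases apart. The genome build of these coordinates is not given in the sources used here. RefSeq names 7 MIR2118 genes on assembly Zm-B73-REFERENCE-NAM-5.0, and 5 of them were matched by name, each with the deposited precursor's length. The hairpins of the adjacent pair are given because this pair carried most miR2118 reads, with the mature strand in capitals.
miR2118b precursor: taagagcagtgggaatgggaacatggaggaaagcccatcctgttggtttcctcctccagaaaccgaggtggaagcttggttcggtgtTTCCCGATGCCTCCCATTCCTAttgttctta
miR2118d precursor: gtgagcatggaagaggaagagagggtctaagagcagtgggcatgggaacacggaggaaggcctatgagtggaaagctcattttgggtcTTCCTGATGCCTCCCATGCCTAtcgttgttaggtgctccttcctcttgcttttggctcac
In both the mature strand lies toward the 3′ end of the hairpin, at positions 88 to 109 of 118 in miR2118b and 89 to 110 of 148 in miR2118d.

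Levels are given as normalized expression (NE), which the authors scaled to a total of reads per library, in RPM. The commonest low NE value, taken as 1 read, was 1.15 in IFC replicate 1, 0.837 in IFC replicate 2, 0.717 in CFC replicate 1 and 0.879 in CFC replicate 2. On that reading, 38 of the 39 values above 0 among the rare families were whole reads within 0.012. The library totals this reading implies are several times lower than the valid reads the study describes, so the total used, or the worth of 1 read, is not settled. Read counts, intervals and limits below hold only on this reading. A value of 0 allows an NE of up to 3.44, 2.51, 2.15 and 2.64 in the same order of libraries, the NE of 3 reads. Poisson intervals and these limits cover counting error only.

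miR2118 was the only trigger family with more than a few reads in the ovaries. miR2118b had NE values of 14.9 and 23.4 in the IFC libraries, against 17.9 and 8.79 in the CFC libraries. Its neighbour miR2118d had 12.6 and 22.6 in IFC and 14.3 and 7.03 in CFC. For both, IFC replicate 2 was highest and CFC replicate 2 lowest, and the groups overlapped because CFC replicate 1 lay above IFC replicate 1. The ratio of miR2118b to miR2118d was 1.18 and 1.04 in IFC and 1.25 and 1.25 in CFC, so the 2 neighbours kept nearly the same ratio while their levels changed.

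miR2118a, which shares its seed with miR2118d, stood lower. It had NE values of 5.73 and 2.51 in IFC and 8.60 and 1.76 in CFC. Here replicate 1 of each phenotype was above replicate 2 of each, an order that miR2118b and miR2118d did not have. Accordingly miR2118b exceeded miR2118a by 2.60 and 9.33 times in IFC and by 2.08 and 5 times in CFC. These ratios and that order rest on 5 and 3 reads of miR2118a in IFC and 12 and 2 in CFC. Their counting error is large and was not tested. The last 2 members were at the limit of detection. miR2118c had 1 read in IFC replicate 2 (NE 0.837) and was listed at 0 in the other libraries. miR2118g had 1 read in CFC replicate 1 (NE 0.717) and was at 0 elsewhere. Neither passed the filter for testing, an NE above 1 in at least 1 library.

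Summed over the 5 sequences, miR2118 had an NE of 33.2 (95% Poisson interval 22.2 to 47.7) and 49.4 (37.6 to 63.7) in the IFC libraries. In the CFC libraries the sums were 41.6 (31.6 to 53.8) and 17.6 (10.7 to 27.1). The sums rested on 29, 59, 58 and 20 reads, and miR2118b and miR2118d together held 82.8% and 93.2% of them in IFC and 77.6% and 90.0% in CFC. The means were 41.3 ± 11.4 in IFC and 29.6 ± 17.0 in CFC (SD, n = 2 each), a ratio of 1.40. The CFC libraries differed more from each other than the means did, and their intervals did not overlap. The difference between phenotypes was thus within the spread of the CFC pair.

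miR2275 was nearly absent from the ovaries. Its loci are shown because the deposited precursor of one arm does not match that arm exactly. The precursor listed for miR2275b-5p (chr4:30231227-30231308, plus strand), here with this arm in capitals, holds both arms.
miR2275b-5p precursor: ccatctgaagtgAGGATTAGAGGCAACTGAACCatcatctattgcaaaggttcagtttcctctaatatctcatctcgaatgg
The 22 bases of miR2275b-3p are found in it without a mismatch, at positions 51 to 72. The precursor listed for miR2275b-3p itself (chr10:71446555-71446793, plus strand) is 239 bases long and holds the arm with 1 substitution, T7C counted from the 5′ end of the miRNA, as ttcagtCtcctctaatatctca. RefSeq gives MIR2275b 82 bases, the length of the chromosome 4 precursor. The locus listed for the 3′ arm is thus not the one that matches it exactly.

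Neither arm of miR2275 had a read in IFC. miR2275b-5p was at 0 in both IFC libraries, against an NE of 0.717 and 1.76 in CFC, which is 1 and 2 reads. miR2275b-3p was at 0 in both IFC libraries and reached 1.08 in CFC replicate 1, with 0 in the other CFC library. The value of 1.08 corresponds to 1.5 reads, the only one among the rare families that was not whole. Summed over both arms the family had 0 and 0 in IFC, where counting error alone allows up to 3.44 and 2.51, and 1.79 and 1.76 in CFC. All 4 values lie under the limit of 3 reads of their own library, so a difference was not detectable at this depth and no ratio of NE is given.

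With miR2118 and miR2275 added together, the triggers had an NE of 33.2 and 49.4 in IFC and 43.4 and 19.3 in CFC. The means were 41.3 in IFC and 31.4 in CFC, a log2 ratio of 0.40. Without CFC replicate 1 this ratio was 1.10, and without CFC replicate 2 it was -0.071, so the direction rested on CFC replicate 2.

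miR1432, the maize family with a known target in rice, was low and had no order by phenotype. miR1432-5p had NE values of 1.15 and 3.35 in IFC and 4.30 and 1.76 in CFC, from 1 to 6 reads. CFC replicate 1 was the highest and IFC replicate 1 the lowest, and the other CFC library lay between the IFC libraries.

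**Figure D2:**
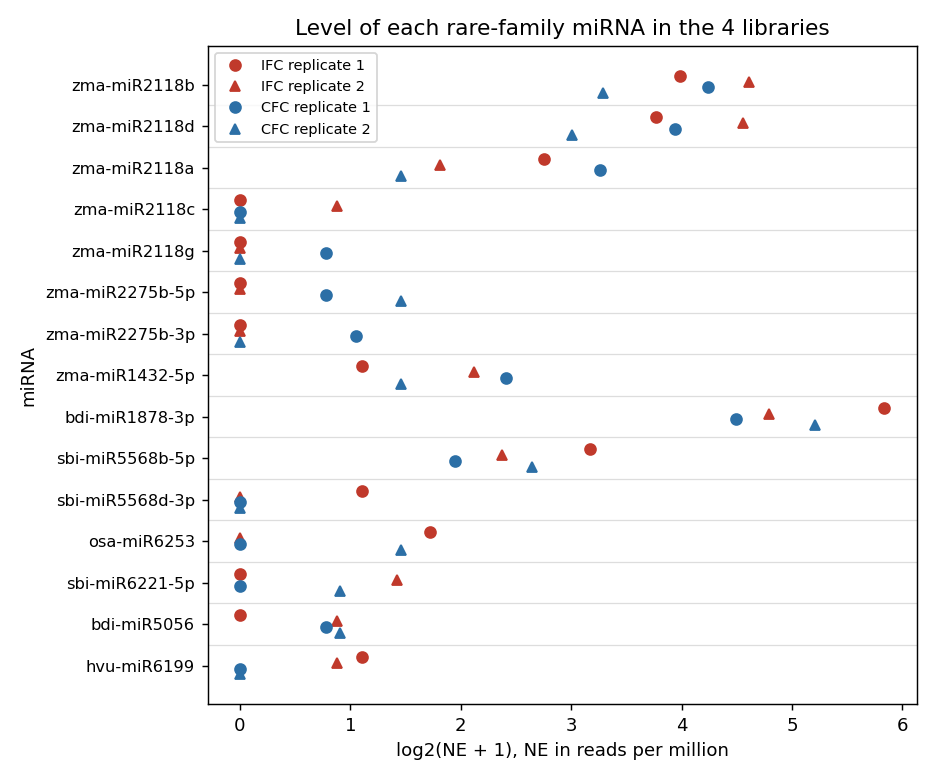
Level of each of the 15 miRNAs as log2(NE + 1) (x axis) in the IFC libraries (red) and the CFC libraries (blue), with circles for replicate 1 and triangles for replicate 2. The ranges of red and blue overlap for all 6 miRNAs that were read in every library, such as miR2118b with 14.9 and 23.4 in IFC and 17.9 and 8.79 in CFC.

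The most abundant miRNA of the rare families was not a trigger but miR1878-3p, a 24-nt sequence first named in Brachypodium. Its hairpin on chromosome 2 (chr2:185407086-185407240, plus strand) is shown because it departs from those of the known miRNAs outside the rare families. The mature strand is in capitals.
miR1878 precursor: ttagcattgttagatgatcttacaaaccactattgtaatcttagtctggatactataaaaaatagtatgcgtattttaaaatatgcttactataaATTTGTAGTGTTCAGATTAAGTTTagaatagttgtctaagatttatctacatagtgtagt
It has a GC content of 25.8%, below the lowest value of the other 146 (38.4%). Within the rare families this also held for the precursors of miR5568 (31.4%), miR5056 (35.4%) and miR6253 (38%). The miR1878 hairpin has a minimal folding free energy index of 1.5, against a highest value of 1.3 among the other 146. This index divides folding energy by length and GC content, so a low GC content raises it. The folding energy itself was -61.3 kcal/mol for miR1878, beside a median of -61.9 kcal/mol among the other 146. The larger index is thus not a sign of a larger folding energy.

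miR1878-3p ranked 42nd of the 161 known miRNAs by mean NE. It had 56.1 (95% Poisson interval 41.5 to 74.2) and 26.8 (18.3 to 37.8) in IFC, against 21.5 (14.5 to 30.7) and 36.0 (25.9 to 48.9) in CFC. IFC replicate 1 was the highest and CFC replicate 1 the lowest. The CFC replicate 2 value lay above that of IFC replicate 2, so the groups overlapped. The means were 41.5 ± 20.7 in IFC and 28.8 ± 10.3 in CFC (SD, n = 2 each), a ratio of 1.44.

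miR1878 and miR2118 were high in different libraries. The ratio of miR1878 to summed miR2118 was 1.69 in IFC replicate 1 and 0.542 in IFC replicate 2, against 0.517 in CFC replicate 1 and 2.05 in CFC replicate 2. IFC replicate 2 and CFC replicate 1, 1 library of each phenotype, had about the same ratio, and so had the other 2. A split by length mostly regroups the same reads and adds no separate observation. miR1878 gave 49 and 32 of the 24- and 25-nt reads in IFC and 30 and 41 in CFC. The 24- and 25-nt sequences made up 53 of 90 and 36 of 104 rare-family reads in IFC (58.9% and 34.6%), against 31 of 101.5 (30.5%) and 45 of 75 reads in CFC. Over the other known miRNAs, the 24-nt share was 0.332% and 0.459% in IFC and 0.180% and 0.463% in CFC, so IFC replicate 2 did not stand low there as it did for miR1878. The 22-nt share of the other known miRNAs was 4.45% and 3.92% in IFC and 3.77% and 5.36% in CFC. Their summed 22-nt NE was 853 and 1039 in IFC and 1060 and 1512 in CFC. The order of the libraries thus differed between share and NE, and neither is set against miR2118 here. The part of these library differences in the levels was not tested.

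**Figure D3:**
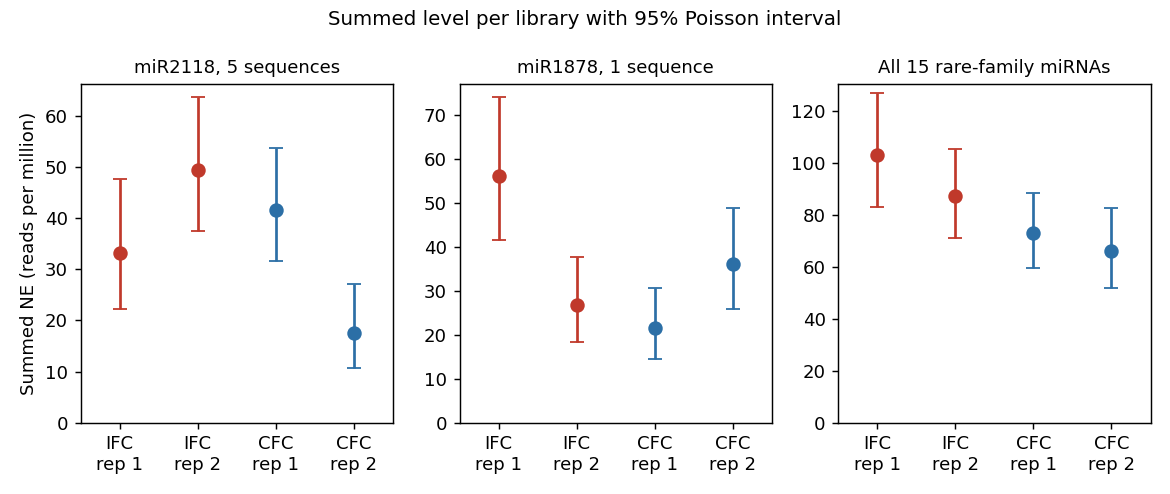
Summed NE in RPM (y axis) in each library (x axis) for miR2118, miR1878 and all 15 miRNAs, with 95% Poisson intervals as bars, IFC in red and CFC in blue. miR2118 is highest in IFC replicate 2 (49.4) and lowest in CFC replicate 2 (17.6), while miR1878 is highest in IFC replicate 1 (56.1) and lowest in CFC replicate 1 (21.5).

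miR5568 also had reads in all 4 libraries. Both of its listed sequences lie on 1 hairpin (chr2:5113973-5114093, plus strand), shown with the 5′ arm in capitals because the 2 names, miR5568b-5p and miR5568d-3p, denote arms of the same precursor here.
miR5568 precursor: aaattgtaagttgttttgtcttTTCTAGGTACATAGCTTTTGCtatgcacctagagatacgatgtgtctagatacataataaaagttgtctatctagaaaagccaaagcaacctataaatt
The 3′ arm occupies positions 81 to 104 of its 121 bases. miR5568b-5p had NE values of 8.02 and 4.18 in IFC and 2.87 and 5.27 in CFC, from 4 to 7 reads. miR5568d-3p had 1 read, in IFC replicate 1 (NE 1.15), where the 5′ arm had 7. The libraries fell in the same order for miR5568b-5p as for miR1878-3p, with IFC replicate 1 highest and CFC replicate 1 lowest. The ranges of the phenotypes overlapped.

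The last 4 families had 0, 1 or 2 reads in every library. miR6253 had an NE of 2.29 and 0 in IFC and 0 and 1.76 in CFC. miR6221-5p had 0 and 1.67 in IFC and 0 and 0.879 in CFC. Both were seen in 1 library of each phenotype. miR5056, whose precursor is the only plastid one among the 161, had 0 and 0.837 in IFC and 0.717 and 0.879 in CFC, 1 read in each of 3 libraries. miR6199 had 1.15 and 0.837 in IFC, 1 read each, and 0 in both CFC libraries. A 0 in CFC allows an NE of 2.15 and 2.64, above both values of miR6199, so a difference was not detectable at this depth.

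To ask whether any rare-family miRNA differed between IFC and CFC ovaries, log2(NE + 1) of the 145 known miRNAs that passed the filter was fitted with limma. Of the 15 rare-family miRNAs 12 could be tested, while miR2118c, miR2118g and miR5056 could not. None of the 12 passed an adjusted p of 0.05 over the 145 (Benjamini-Hochberg, two-sided), where 0% of all known miRNAs tested passed. At an unadjusted p of 0.05, 0 of the 12 passed and 1 of 145 (0.69%) did. The smallest unadjusted p among the 12 was 0.173 for miR2275b-5p (limma log2 fold change -1.12, SE 0.78, adjusted p = 0.999). With IFC at 0, that value depends on the added 1 and is no measure of a fold in NE. A total of 8 had a log2 fold change above 0, against 71 of 145 (49%). Their median was 0.36, beside -0.02 over all 145, and the order of the 2 medians depended on the libraries used. Without IFC replicate 1 it was 0.01 for the 10 rare-family miRNAs then tested, beside 0.21 over all 137, and without IFC replicate 2 it was 0.39 for 11, beside -0.37 over all 138. For any 1 miRNA the smallest two-sided p of an exact permutation test is 0.333 with this number of libraries.

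The limma intervals show how much these data leave undetermined. For miR2118b the log2 fold change on the log2(NE + 1) scale was 0.53 (95% interval -1.17 to 2.24), and for miR2118d it was 0.69 (-1.02 to 2.40). The value for miR2118a was -0.08 (-1.90 to 1.73), for miR1878-3p 0.46 (-1.25 to 2.18), for miR5568b-5p 0.47 (-1.22 to 2.17) and for miR1432-5p -0.32 (-2.05 to 1.40). The remaining tested miRNAs, all at 2 or fewer reads per library, ranged between -1.12 for miR2275b-5p and 0.99 for miR6199. Every interval includes 0. The fold of the rarest is damped by the added 1, and depends on it.

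The 2 values of IFC lay both above or both below those of CFC for 2 of the 12, beside 33 of the 145 (22.8%). These were miR6199, higher in IFC as were 12 of the 145 (8.28%), and miR2275b-5p, lower in IFC as were 21 of the 145 (14.5%). Each rests on 1 or 2 reads a library. After scaling by median-of-ratios size factors, 4 of the 12 were separated, beside 35 of 145 (24.1%). The added ones were miR2118b, at 18.8 and 18.8 in IFC and 17.3 and 8.57 in CFC, and miR2118d, at 15.9 and 18.2 in IFC and 13.9 and 6.86 in CFC. That scaling raises the values of IFC replicate 1, whose size factor was 0.793, and lowers those of IFC replicate 2, whose factor was 1.24.

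**Figure D4:**
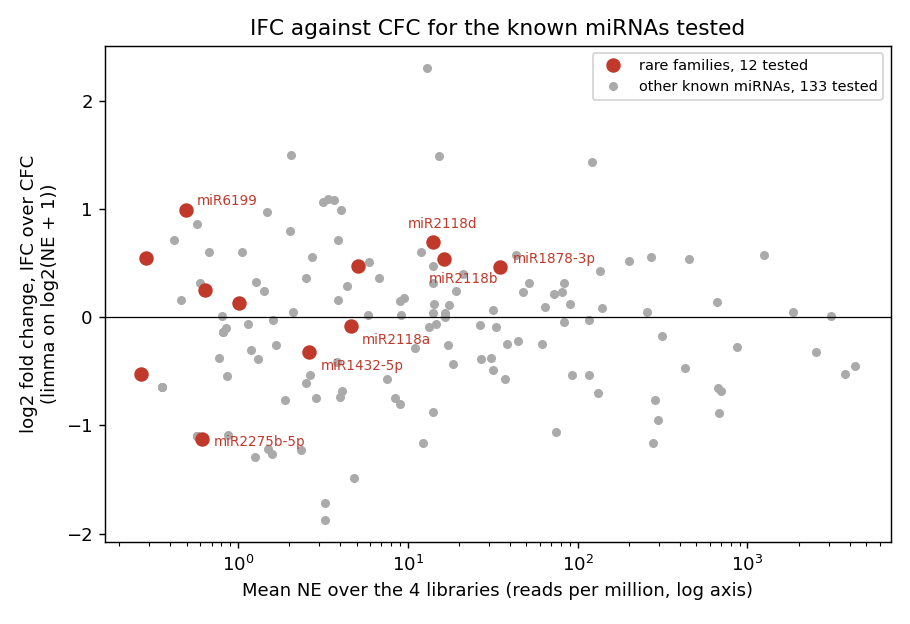
limma log2 fold change of IFC over CFC on the log2(NE + 1) scale (y axis) against the mean NE over the 4 libraries (x axis, log axis) for the 145 known miRNAs tested, with the 12 of the rare families in red. The red points lie between -1.12 (miR2275b-5p) and 0.99 (miR6199), inside the range of the grey points.

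All 15 miRNAs summed to an NE of 103 and 87.0 in IFC and 72.8 and 65.9 in CFC, which is 0.535% and 0.327% of the known miRNA NE in IFC and 0.258% and 0.233% in CFC. The phenotypes did not overlap, with means of 95.1 ± 11.3 in IFC and 69.3 ± 4.86 in CFC (SD, n = 2 each). No test was made of this sum. The separation was lost with median-of-ratios scaling, at 129.9 and 69.98 in IFC and 70.3 and 64.3 in CFC. Without miR1878 the sums were 47.0 and 60.3 in IFC and 51.3 and 29.9 in CFC, and they overlapped. The known miRNAs together were lowest in IFC replicate 1, at an NE of 19255 against 26590 in the other IFC library and 28156 and 28278 in CFC.

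Among the 76 other known miRNAs with a mean NE above 5, the 3 most like summed miR2118 over the 4 libraries were miR156j-3p, miR408a and miR164d-3p. Likeness was the root-mean-square difference of log2(NE + 1) after centring each on its own mean. It was 0.20 for miR156j-3p, 0.23 for miR408a and 0.26 for miR164d-3p, with a median of 0.75 over the 76. miR156j-3p had an NE of 32.1 and 70.3 in IFC and 51.6 and 19.3 in CFC, the same order of libraries as miR2118. For miR1878-3p the closest were miR171l-3p (0.33), miR827 (0.41) and miR166m-5p (0.42), with a median of 0.88. Here miR827 is a sequence listed under its rice name, with an NE of 26.3 and 18.4 in IFC and 8.60 and 30.8 in CFC. Only 4 libraries enter these values, which are a description.

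The wider secondary siRNA pathway was read from a list of 3 families. miR390 guides the cut that starts tasiRNAs from TAS3, miR162 targets DICER-LIKE1 and miR168 targets AGO1. All 7 of their listed sequences were tested and none passed an adjusted p of 0.05 (limma, over the 145). The log2 fold change was above 0 for 4 and below 0 for 3, with a median of 0.02. Both miR390 sequences were below 0, with a median of -0.52, and both miR162 sequences above 0, with a median of 0.22. Of the 3 miR168 sequences 2 were above 0 and 1 below, with a median of 0.12. These medians pool 5′ and 3′ arms. miR168a-5p had -0.76, with NE values of 178 and 244 in IFC and 302 and 417 in CFC. The 3′ arms, miR168a-3p and miR168b-3p, had 0.12 and 0.57. miR390a-5p had -0.95, with 181 and 221 in IFC and 447 and 337 in CFC, while miR390a-3p had -0.09. Both of these 5′ arms were lower in IFC without overlap, as were 21 of the 145. The paper lists both as lower in IFC by its own criteria.

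Cleavage was read from the degradome, which sequences the 5′ ends of uncapped RNA and thus shows where transcripts were cut. Of its 471 listed pairs of a miRNA and a transcript, on 113 genes, 4 belonged to the rare families. All 4 were miR2118d on 4 transcripts of 1 gene, GRMZM2G106216, so they are 1 site and not 4. The gene has no annotation in the deposited table. RefSeq lists it as LOC100217057, protein-coding, and no role is given here. The sequence of the site is not shown.

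The signal of the site on each transcript was low in both libraries. It was 29.6 TPB, tags scaled by library size, in IFC and 29.97 TPB in CFC. A category 4 peak, which by definition has 1 read, had up to 59.1 TPB in the IFC library and 59.9 TPB in the CFC library. The miR2118d site lay at 0.5 of that value on each of its transcripts in both. It was listed as category 2, a peak of more than 1 read above the median of its transcript and below its maximum. The study also lists category 4 peaks well below that value on genes with several transcripts. The TPB of a tag thus appears to be divided over the transcripts it hits, though how is not stated. On that reading the site as a whole had more signal than 1 transcript shows. Of the pairs with signal, 300 of 416 (72.1%) in IFC and 340 of 421 (80.8%) in CFC had more TPB than this site had on 1 transcript. The alignment score, a sum of mismatch penalties, was 3.5, where the median of all pairs was 3.0 and the highest 4.0.

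On each transcript the site lies at the 10th base from the 3′ end of the aligned range. The transcript position is 334 on T04, 426 on T01, 415 on T06 and 345 on T05. A miRNA-guided cut falls between bases 10 and 11 of the miRNA. The site has that position if the aligned range starts at base 1 of the miRNA. The range covers 21 of the 22 bases, and which base is left out is not stated. The search only kept sites near this position, so this was used to choose them. The p-value that CleaveLand gave was 0.671 in IFC and 0.692 in CFC. Thus 0 of the 4 pairs had a p of 0.05 or less, against 222 of all 471 pairs (47.1%) with such a p in at least 1 library. With 1 degradome library per phenotype, no test between them was possible. Neither miR2275, miR1432, miR1878 and miR5568 nor the 4 rarest families had a listed pair.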

How the data were processed

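Small RNA was sequenced from 2 IFC and 2 CFC ovary samples and degradomes from 1 mixed sample of each phenotype. The authors removed adapters, junk, reads under 15 nt, structural RNAs, repeats and exon reads with ACGT101-miR 4.2, mapped the rest to miRBase 21.0 and deposited NE in RPM. Removing repeats can affect families with repeat-like precursors, which was not tested. The authors ran CleaveLand 3.0.1 and deposited the signal in TPB, a p-value and an alignment score for each pair. Precursor GC content was deposited as a percent. The genome build was not given in the sources used here.

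Samples were grouped by their labels, in which CFC is called wild-type. The extraction text of the labels names another tissue, and the paper's ovaries were taken as the source. The 15 miRNAs follow a rule on family numbers. These members and the lists were chosen with earlier results of these data known. All members and all their degradome pairs are named. The 3 most like miRNAs were named by the measure given in the text.

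limma 3.58.1 (R 4.3.3, lmFit and eBayes without a block) was applied to log2(NE + 1) of those 145 known miRNAs that exceeded an NE of 1 in any library, with Benjamini-Hochberg adjustment. The prior had 13.7 and the residual 2 degrees of freedom. Since NE is not a count, no count test was run: below an NE of 50, between 66.3% and 73.8% of a library's values came out as whole reads. The commonest low NE, taken as 1 read, implies totals of 873087 and 1194843 reads in IFC and of 1394658 and 1138013 in CFC. These are several times below the valid reads the study describes, so either the total used by the authors was smaller or that NE is worth more than 1 read. Which holds was not settled, and read counts rest on the first reading. Intervals on summed NE are exact Poisson. The limma p-values and intervals rest mostly on a variance shared over all miRNAs tested, and little on a miRNA's own spread between these 4 samples. With median-of-ratios scaling, with the replicate block and without IFC replicate 1, the prior was infinite. There a miRNA's own spread did not enter. Alternatives were pseudocounts of 0.5 and 5, no filter, a filter at an NE of 5, median-of-ratios scaling, a robust fit with a trend, a replicate block, leaving out each library and, for the degradome, a p of 0.01. The table of predicted targets was not used, since it holds none of these miRNAs.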

Additional observations from a re-analysis of the deposited data

How the results depend on the processing

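No miRNA passed an adjusted p of 0.05 under any of the 12 settings of the limma fit, the main one included, and the smallest adjusted p ranged between 0.262 (without CFC replicate 2) and 0.999. In that setting miR2275b-3p had an unadjusted p of 0.0495, 1 of 11 rare-family miRNAs under 0.05, beside 24 of all 143. A fit left with 1 library in a phenotype assumes that it varies like the other. Pseudocounts, filters, scaling and the robust fit changed no direction among the rare families. The labels do not say that equal replicate numbers share an ear. Deviations of same-numbered libraries correlated at 0.25 over 145 miRNAs, and with the replicate number as a block 0 rare-family miRNAs and 0 of all 145 passed an adjusted p of 0.05.

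Leaving out 1 library at a time moved the limma log2 fold change between -0.98 and 0.82 for miR2118a, -0.83 and 0.19 for miR1432-5p, -0.73 and 0.99 for miR6253, -0.20 and 0.96 for miR6221-5p, and -0.055 and 0.98 for miR1878-3p, each changing direction. It kept its direction for miR2118b (0.06 to 1.01), miR2118d (0.22 to 1.16) and miR5568b-5p (0.07 to 0.87). The log2 ratio of the summed triggers ranged between -0.071 and 1.10, and was 0.46 for 22-nt sequences only and 0.42 after median-of-ratios scaling. The number of separated rare-family miRNAs was 2, and 4 after that scaling; when 1 library was left out, a setting chosen after seeing the data that makes separation easier, it was 4 to 7, beside 55.6% to 64.3% of all known miRNAs tested. The other scaling and the sum without miR1878 for all 15 miRNAs were also chosen after seeing the data. The stricter degradome threshold of 0.01 left 0 of the 4 rare-family pairs, beside 42 of all 471 (8.92%). With none of the 4 under 0.05, that outcome was fixed in advance. Most rare-family values rest on fewer than 10 reads, which limits what these libraries can show.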
